A study of Mus musculus with 6 samples.

Results

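The 10 genes described here are immediate early genes of the mouse: Fos, Fosb, Junb, Egr1, Egr3, Arc, Npas4, Nr4a1, Ier2 and Dusp1. They were taken by name from the 32285 genes of the deposited count tables, with earlier results of these data known, and all 10 were present. They were followed in 6 coronal brain sections by spatial transcriptomics (10x Visium), which captures polyadenylated RNA on a grid of barcoded spots and counts each captured molecule once by its unique molecular identifier (UMI). All sections came from C57BL/6J male mice with no stated treatment, 2 mice at each of 3 ages: young (6 months), middle-aged (18 months) and old (21 months). The brains were frozen and embedded in OCT, and each section was 16 µm thick. The sections filled 2 slides. Middle 2 and old 2 shared slide 2 and the remaining 4 sections shared slide 1, which therefore held every young section, so slide and age were partly confounded.

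Immediate early genes are transcribed within minutes of a stimulus, without prior protein synthesis, when calcium and kinase signals activate transcription factors such as CREB and SRF that already sit at their promoters. In the brain they are widely read as marks of recent neuronal activity, and their mRNAs are short-lived. Most of the 10 encode transcription factors: Fos, Fosb and Junb are subunits of AP-1, Egr1 and Egr3 are zinc-finger factors, Npas4 is a neuron-specific bHLH-PAS factor tied to inhibitory synapses, and Nr4a1 is an orphan nuclear receptor. Ier2 encodes a small nuclear protein, Dusp1 a phosphatase that switches MAP kinases off, and Arc a cytoskeleton-associated synaptic protein that promotes AMPA receptor endocytosis.

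The sequences upstream of the genes are shown because CREB, the factor named above, binds the cyclic AMP response element, whose core is TGACG. The RefSeq promoter table (GRCm38.p6) held 6 of the 10 genes, Fos, Fosb, Junb, Npas4, Nr4a1 and Dusp1. The 250 bases before the RefSeq start of 3 of them follow, read 5′ to 3′ on the gene's own strand: Fos at chr12:85473640-85473889 (plus strand), Nr4a1 at chr15:101266596-101266845 (plus strand) and Dusp1 at chr17:26508473-26508722 (minus strand). Capitals mark TGACG or its reverse complement CGTCA, the TATA box letters TATAAA, and GCGGGGGCG, an EGR-type GC-rich element, on either strand.
Fos: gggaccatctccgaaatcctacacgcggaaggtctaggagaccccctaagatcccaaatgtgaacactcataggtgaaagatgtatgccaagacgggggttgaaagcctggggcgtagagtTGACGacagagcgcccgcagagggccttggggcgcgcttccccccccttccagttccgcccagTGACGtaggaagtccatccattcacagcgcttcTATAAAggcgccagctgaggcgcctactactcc
Nr4a1: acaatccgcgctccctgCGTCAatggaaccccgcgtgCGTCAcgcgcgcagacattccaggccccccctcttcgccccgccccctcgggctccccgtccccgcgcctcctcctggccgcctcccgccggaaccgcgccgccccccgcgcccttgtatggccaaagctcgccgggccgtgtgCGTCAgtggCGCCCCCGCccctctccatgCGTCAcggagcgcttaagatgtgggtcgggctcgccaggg
Dusp1: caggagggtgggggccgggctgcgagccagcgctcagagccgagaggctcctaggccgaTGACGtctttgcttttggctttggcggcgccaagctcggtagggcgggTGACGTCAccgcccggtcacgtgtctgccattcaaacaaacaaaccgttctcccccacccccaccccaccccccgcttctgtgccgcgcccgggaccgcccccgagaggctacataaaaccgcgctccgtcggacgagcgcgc
TGACG occurred on either strand in 6 of the 6 windows and in 17.8% of the 32851 promoter windows of the same length in the table. The full palindrome TGACGTCA was found only in Dusp1 among the 6 (1.55% of all windows). TATAAA on the gene's strand was found only in Fos (7.59% of all windows), 33 bases before the start. GCGGGGGCG was found in Fosb and Nr4a1 (2.57% of all windows), and its relative GCGTGGGCG (0.536%) and the CArG box bound by SRF (1.47%) in none of the 6. The windows were rich in G and C, with 58.4% in Fos, 74.4% in Nr4a1 and 68.4% in Dusp1 against a median of 52.4% over all windows. These are letter matches in short windows and say nothing about binding in these brains.

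Each section held 2573 to 2973 spots under tissue and 60938938 to 77557934 UMIs, with 20370 to 30093 UMIs in the median spot. Mitochondrially encoded genes took 13.3% to 16.5% of the UMIs. A spot covers several cells, so fewer expressing cells and less RNA per cell cannot be told apart. The 16741 spots were clustered without the 10 genes or other activity genes, and clusters were named from marker genes, which gave 4 isocortex layers and 8 other regions. Because spots share a barcode grid, 1919 barcodes occurred in all 6 sections, as array positions and not as shared cells. Levels are given in CPM (counts divided by the summed counts of that section or region), and levels are compared within a gene only. The sections of an age are separate mice. The p-values rest on the spread between mice of the same age, pooled over all ages in the model. With a single section per mouse, differences between mice and between sections cannot be told apart.

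The 10 genes were cortical. The isocortex held 33.5% to 40.8% of all UMIs of a section, but 70.4% to 80.3% of the UMIs of Arc, 66.8% to 74.0% of those of Egr1 and 60.0% to 69.1% of those of Egr3. Its share was 60.5% to 68.5% for Nr4a1, 59.6% to 64.9% for Ier2, 52.9% to 66.1% for Fos, 52.0% to 63.8% for Junb, 53.2% to 63.8% for Dusp1 and 50.5% to 62.6% for Fosb. Npas4 had a share of 47.3% to 58.4%, the lowest range though not the lowest gene in young 1, and it too lay above that of all genes in each section. The levels by region and layer that follow are a description over the 6 sections, with no test.

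**Figure D1:**
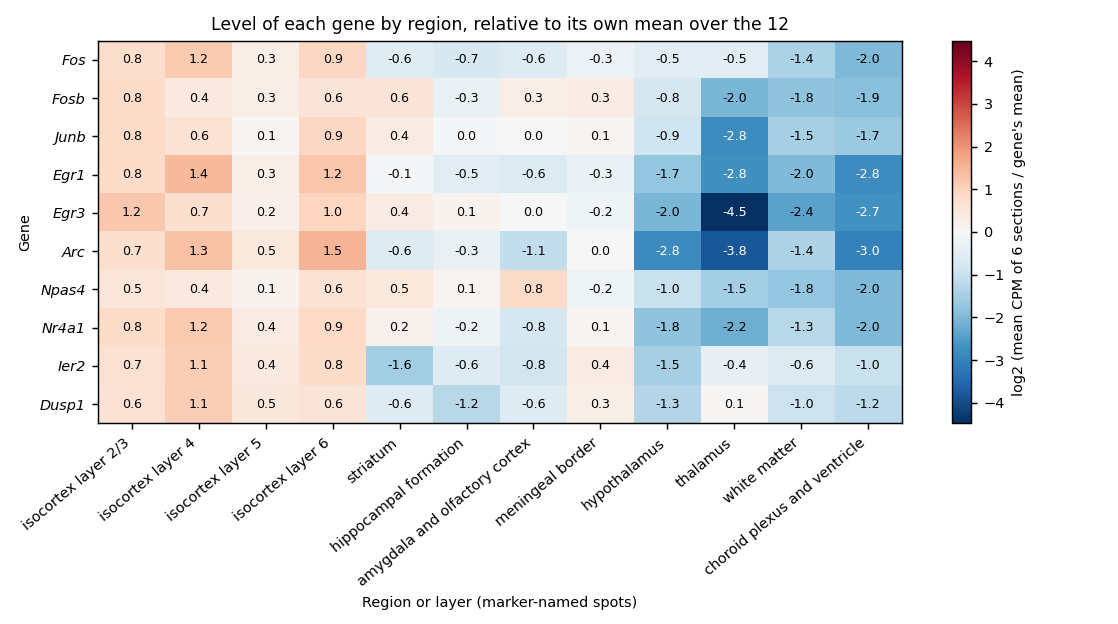
Mean level of each gene in 12 layers and regions, as the log2 of the CPM relative to the gene's own mean over the 12, averaged over 6 sections. The 4 isocortex layers lie above 0 for every gene, and thalamus holds the lowest values of Egr3 (-4.48) and Arc (-3.79) but not of Dusp1 (0.06).

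Within the isocortex the genes divided by layer, as named in the main clustering. Layer 4 was named in that clustering only, and no cluster took its name when the clusters were coarser or finer. A further 359 isocortex spots had no named layer. Egr1, a factor needed for lasting synaptic change, was highest in layer 4, at 894 ± 128 CPM (SD, n = 6 sections), followed by layer 6 at 777 ± 66.0, layer 2/3 at 578 ± 64.8 and layer 5 at 391 ± 47.4. Layer 4 was its top layer in 5 of 6 sections, and layer 5 its lowest in 6 of 6. Layer 4 was also the top layer of Fos (144 ± 38.8 CPM; 5 of 6 sections), and of Nr4a1 (305 ± 50.2), Ier2 (58.1 ± 3.13) and Dusp1, whose layer 4 mean was 137 CPM, each in 6 of 6 sections. The zinc-finger gene Egr3 did not share the order of Egr1. Its level was 267 ± 27.1 CPM in layer 2/3, 225 ± 25.4 in layer 6, 189 ± 27.3 in layer 4 and 135 ± 15.1 in layer 5, and layer 2/3 was on top in 6 of 6 sections. Fosb had the same top layer as Egr3, at 26.2 ± 7.42 CPM in layer 2/3, in 6 of 6 sections.

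Arc, whose mRNA is carried into dendrites, had its highest level in layer 6 in 6 of 6 sections, 481 ± 115 CPM, with layer 4 next at 417 ± 97.8 and layer 2/3 at 271 ± 66.5. Junb (169 ± 31.2 CPM) and Npas4 (29.4 ± 5.67 CPM) also had their highest layer mean in layer 6, but above the next layer in only 4 and 3 of 6 sections, so their first 2 layers were not separated. Layer 5, the main output layer to subcortical targets, had the lowest mean for all 10 genes. The top layer exceeded layer 5 by 1.45-fold for Npas4 at the least and 2.28-fold for Egr1 at the most. Per spot the genes were common in the isocortex. After each spot was thinned to 15000 UMIs (4329 of 4367 spots), Egr1 was found in 98.2% to 99.7% of isocortex spots, Arc in 90.3% to 97.6%, Fos in 62.5% to 79.5% and Fosb in 18.4% to 32.1%.

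Outside the isocortex the thalamus set the genes apart from each other. Egr3 measured 3.43 to 5.80 CPM in thalamus and 243 to 318 CPM in layer 2/3, and Arc 7.25 to 12.9 CPM in thalamus and 368 to 688 CPM in layer 6. Junb reached 7.01 to 17.4 CPM there and Fosb 0.85 to 4.93 CPM, the latter from as few as 8 UMIs in a section. Fos was less depleted, at 28.8 to 68.1 CPM, and Dusp1 measured 56.7 to 80.0 CPM, close to its mean over the 12 layers and regions. Its lowest means were in hypothalamus (18.3 to 30.4 CPM), hippocampal formation (21.5 to 30.4) and choroid plexus (19.2 to 36.0), whose order differed between sections. Ier2 had its lowest mean in striatum, 6.52 to 10.3 CPM, with thalamus higher in every section at 19.2 to 22.0 CPM. The striatum lay among the upper regions for Fosb (10.3 to 32.1 CPM), Junb (70.3 to 178 CPM) and Egr3 (142 to 157 CPM). Npas4 was highest in the spots of amygdala and olfactory cortex, at a mean of 34.1 CPM (21.9 to 46.8), but above layer 6 in only 3 of 6 sections.

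The comparison of ages was made first on whole sections. None of the 10 genes passed the test between any of the ages (edgeR quasi-likelihood test over all genes, Benjamini-Hochberg adjusted p under 0.05, here called changed). Of all 17673 genes tested, 0.164% were called for old against young, 0.0679% for middle-aged against young and 0.0% for old against middle-aged. At an unadjusted p under 0.05 the genes numbered 3, 2 and 0 of the 10, and 2246, 1382 and 361 of all genes. Both comparisons with young use the same 2 young sections, so they are not independent of each other. The median log2 fold change of the 10 was -0.14 for old against young and -0.13 for middle-aged against young, beside -0.002 and -0.005 over all genes tested. Depth was not thin at this level: the rarest of the genes, Fosb, had 751 to 1340 UMIs in a section.

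Egr1 and Arc were the only members for which both young sections lay above the other 4, a pattern that 7.05% of all genes showed. The isocortex held 40.8% and 38.9% of all UMIs in young, 40.8% and 34.2% in middle-aged and 36.4% and 33.5% in old sections. The part of this share in the whole-section levels was not tested. Egr1 measured 334 and 385 CPM in young, 306 and 297 in middle-aged and 312 and 273 in old sections. The middle-aged values lay within the old range, so only the young pair was separate, and young 1 lay closer to old 1 than to young 2. The log2 fold change was -0.35 ± 0.081 (SE) for old against young (edgeR adjusted p = 0.184) and -0.28 ± 0.081 for middle-aged against young (edgeR adjusted p = 0.486). Under DESeq2 the same old against young value passed, with an adjusted p of 0.0172, the only member of the 10 to do so where 0.973% of all genes were called, and Egr1's adjusted p under its other alternatives ran from 0.0747 to 0.807. For Arc the young sections had 161 and 236 CPM, the middle-aged 135.0 and 154.0, and the old 144 and 130.5. Young 2 stood far above the rest and young 1 just above middle 2. Its log2 fold change was -0.58 ± 0.17 for old against young (edgeR adjusted p = 0.297) and -0.48 ± 0.17 for middle-aged against young (adjusted p = 0.602).

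The Arc value depended on which young section was kept. Without young 1 it was -0.81 (edgeR adjusted p = 0.0177) for old and -0.71 (adjusted p = 0.0245) for middle-aged, both past the threshold, with 0.122% and 0.183% of all genes called. Without young 2 the old against young value was -0.31. In these fits the lone young section is assumed to vary like the other ages.

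The AP-1 genes did not separate the ages. Fos measured 66.1 and 80.3 CPM in young, 53.7 and 58.7 in middle-aged and 77.2 and 52.0 in old sections. Old 2 was the lowest of the 6 and old 1 the second highest, so the old pair spanned nearly the whole range. The log2 fold change of Fos was -0.23 ± 0.195 for old against young (adjusted p = 0.675). Junb, at 75.2 and 106 CPM in young, 88.6 and 80.1 in middle-aged and 103 and 76.7 in old sections, overlapped in the same way. Fosb did so too, at 11.5 and 17.3, 12.8 and 13.0, and 17.7 and 12.3 CPM in the same order. Their log2 fold changes for old against young were -0.06 ± 0.205 and 0.01 ± 0.231 (adjusted p = 0.944 and 0.991).

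The other 5 genes overlapped between ages as well. Egr3 measured 110.0 and 132 CPM in young, 118 and 109.7 in middle-aged and 117 and 98.3 in old sections, and Nr4a1 122 and 145, 130.5 and 116, and 156 and 109 CPM. The highest Nr4a1 value and the lowest were both from old sections. Npas4 measured 14.3 and 18.8, 15.4 and 20.5, and 20.0 and 17.8 CPM, Ier2 28.9 and 27.0, 26.7 and 26.1, and 27.2 and 22.9 CPM, and Dusp1 64.9 and 69.3, 64.3 and 61.5, and 74.7 and 57.7 CPM. Npas4 had the only positive log2 fold change for old against young besides Fosb, 0.15 ± 0.159, and the remaining 4 ranged from -0.22 (Egr3) to -0.06 (Nr4a1).

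In the isocortex alone the genes were also without a call for age. Most of their UMIs lay there, except for Npas4 in middle 2 (48.7%) and old 2 (47.3%). Of all 15510 genes tested there, 0.206% were called for old against young, 0.187% for middle-aged against young and 0.0% for old against middle-aged. At an unadjusted p under 0.05, edgeR gave 1, 1 and 0 of the 10 genes and 1679, 1371 and 478 of all genes. Egr1 measured 592 and 723 CPM in young, 555 and 581 in middle-aged and 628 and 546 in old sections. Old 1 lay above young 1, so the gap between young and older sections seen in whole sections was not present. Arc measured 316 and 458 CPM in young, 247 and 326 in middle-aged and 289 and 274 in old sections. Middle 2 exceeded young 1. The log2 fold changes for old against young were -0.20 ± 0.085 for Egr1 (edgeR adjusted p = 0.44) and -0.49 ± 0.218 for Arc (adjusted p = 0.534). With 1 section left out they ran from -0.31 to -0.07 for Egr1 and from -0.71 to -0.22 for Arc. None of the 10 had both young sections above the other 4 in isocortex, against 7.03% of all genes.

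**Figure D2:**
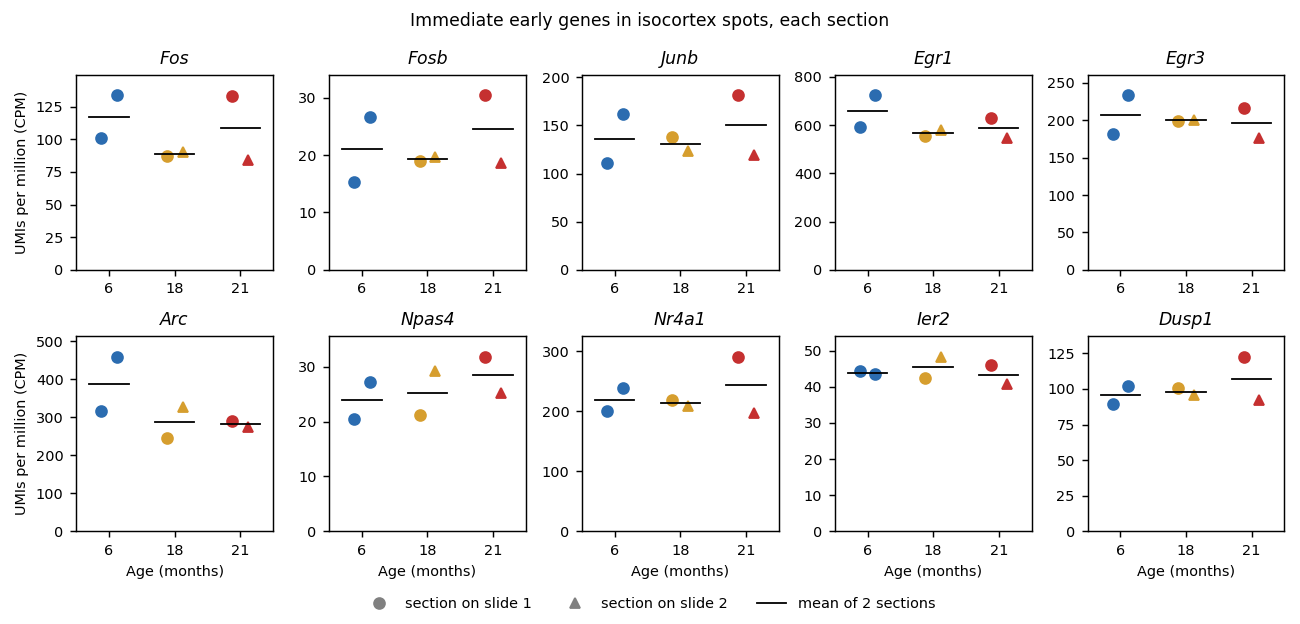
Level of each of the 10 genes in the isocortex of each section, in CPM, with points coloured by age. Young 2 is the highest section for Fos, Egr1, Egr3 and Arc, and old 1 the highest for Fosb, Junb, Npas4, Nr4a1 and Dusp1.

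For the other genes in isocortex the 2 young or the 2 old sections often lay far apart. Fos measured 100.9 and 134 CPM in young, 87.0 and 90.7 in middle-aged and 133 and 84.3 in old sections. Young 2 and old 1 were nearly equal and highest. Junb measured 111 and 162, 138 and 123, and 181 and 119 CPM, and Nr4a1 199.8 and 239, 219 and 209, and 290.5 and 197 CPM in the same order. Old 1 was highest for both, and old 2 lay within the range of the younger sections for Junb and below it for Nr4a1. Fosb measured 15.3 and 26.7, 18.9 and 19.7, and 30.4 and 18.6 CPM, and Npas4 20.5 and 27.2, 21.2 and 29.2, and 31.7 and 25.2 CPM. For these 2 genes young 1 was lowest and old 1 highest. The log2 fold changes for old against young of these 5 genes ran from -0.14 ± 0.281 (Fos) to 0.23 ± 0.2 (Npas4). Egr3 was at 181 to 233 CPM, Ier2 at 40.8 to 48.2 CPM and Dusp1 at 89.4 to 122 CPM over the 6 sections.

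The spread between the 2 sections of an age ran across genes in one direction. In isocortex old 1 exceeded old 2 for 10 of 10 genes, by a median of 1.29-fold (1.06 to 1.64), and 5 of the 10 lay above the 95th percentile of the same ratio over 14490 genes, whose median was 1.01. Young 2 exceeded young 1 for 9 of 10 genes, by a median of 1.31-fold (0.983 for Ier2 to 1.74 for Fosb), with 3 above the 95th percentile of 1.33. Between the middle-aged sections the median was 1.04-fold, with 7 of 10 above 1. The striatum showed the widest gap. Young 2 exceeded young 1 there for 10 of 10 genes, by a median of 1.85-fold and up to 3.11-fold for Fosb, and 7 lay above the 95th percentile of 1.62. Young 1 and young 2 also differed in the tissue they held, with 227 and 134 spots of striatum, 299 and 565 of thalamus and 40 and 260 of hippocampal formation. The part of this difference in the gap was not tested.

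**Figure D3:**
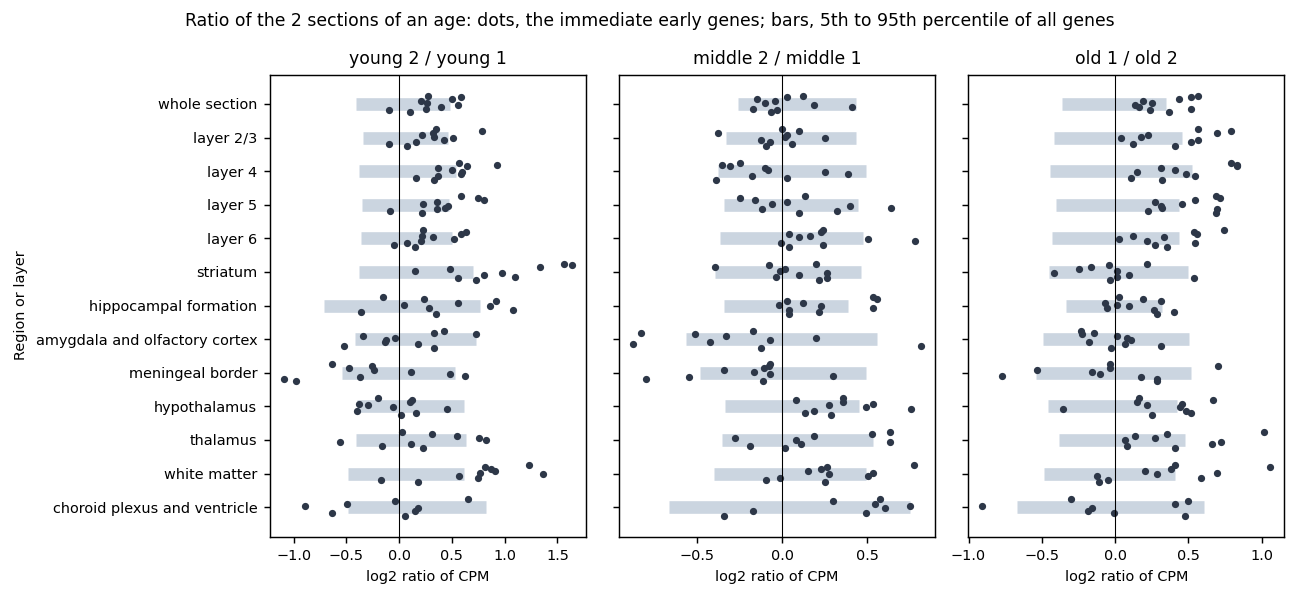
Ratio of the CPM in the 2 sections of an age (young 2 over young 1, middle 2 over middle 1, old 1 over old 2), as the log2 of the ratio. Dots are the 10 genes in whole sections and 12 layers and regions. Thalamus shows only 9 of them and choroid plexus and ventricle 8, as the rest had too few UMIs there. Bars run from the 5th to the 95th percentile of all genes. In isocortex layers the old 1 over old 2 dots all lie above 0, and in striatum the young 2 over young 1 dots reach a ratio of 3.11.

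The fold changes in isocortex were also set against those of the spots outside it. The difference between them was called for 0 of the 10 genes, and for 0.0766% of 16962 genes. It was largest for Dusp1, at 0.31 on the log2 scale, with 2 of the 10 genes (Nr4a1 and Dusp1) under an unadjusted p of 0.05, as were 806 of all genes, and a smallest edgeR adjusted p of 0.958.

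By layer, none of the 10 genes was called either. The percentages of all genes called for old against young were 0.0949% in layer 2/3, 0.0796% in layer 4, 0.0594% in layer 5 and 0.329% in layer 6, and for middle-aged against young 0.0949%, 0.103%, 0.111% and 0.153%. At an unadjusted p under 0.05 edgeR gave 0 to 2 of the 10 genes per layer and comparison, and 717 (layer 4, middle-aged) to 1269 (layer 6, old) of the 12568 to 13700 genes tested. Arc had the lowest log2 fold change for old against young in every layer, from -0.54 in layer 6 to -0.43 in layer 5. In layer 6, its top layer, Arc measured 481 and 688 CPM in young, 368 and 523 in middle-aged and 418.5 and 409 in old sections. Middle 2 lay above young 1 there, so the ages overlapped. In layer 2/3 Arc measured 282 and 399 CPM in young, 211 and 252 in middle-aged and 246 and 239 in old sections. Both young sections lay above the other 4 in that layer, as for 6.61% of all genes, and the log2 fold changes of -0.52 for old and -0.58 for middle-aged sections did not pass (edgeR adjusted p = 0.453 and 0.415). In layer 4 the median log2 fold change of the 10 was 0.11 for old against young and -0.06 for middle-aged against young.

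The deep regions gave 0 calls among the 10 genes in both comparisons with young, by the same edgeR test. All genes called there amounted to 0.0% and 0.0% in the hippocampal formation, where young 1 had only 40 spots against 165 to 271 in the others, and 0.091% and 0.042% in thalamus. The shares were 0.0492% and 0.0422% in hypothalamus, 0.143% and 0.0714% in striatum, and 0.0371% and 0.0185% in amygdala and olfactory cortex. White matter had 1.16% and 0.917% of genes called, and choroid plexus and ventricle 0.0348% and 0.113%. The numbers of the 10 under an unadjusted p of 0.05 went from 0 to 4, the latter in hypothalamus for old against young, where 970 of all 14222 genes were under it. In hypothalamus 9 of 10 log2 fold changes for old against young lay below 0, with a median of -0.40 and a smallest adjusted p of 0.538. In amygdala and olfactory cortex 10 of 10 lay above 0 for middle-aged against young, with a median of 0.36 and Npas4 at 0.90 (edgeR adjusted p = 0.217). That region held only 41 and 33 spots in the middle-aged sections and 40 and 109 in the young. Middle 1 was the highest section for 8 of the 10 genes and middle 2 for 2. Egr1 in the choroid plexus, where RNA from neighbouring tissue is also caught, measured 81.4 and 57.9 CPM in young, 30.2 and 44.1 in middle-aged and 33.5 and 25.1 in old sections. Both young sections were above the rest for Egr1, Nr4a1 and Dusp1 there, as for 8.7% of all genes. For old against young 7 of the 8 genes tested lay below 0, with a median of -0.39. Egr1 was lowest, at a log2 fold change of -1.23 ± 0.256 (edgeR adjusted p = 0.117). For middle-aged against young 8 of 8 lay below 0. Fosb and Npas4 had too few counts for a test in that region.

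Where the 2 young sections stood far apart, leaving 1 out decided the call. In striatum Fos measured 26.4 and 78.0 CPM in young, 27.5 and 31.5 in middle-aged and 47.9 and 41.1 in old sections. The young pair enclosed all other sections. Without young 1 Fos was called for old against young, in a fit that called 0.209% of all genes, and without young 2 Fos, Fosb, Junb and Nr4a1 were called, in a fit that called 2.61%. In white matter Arc measured 36.4 and 93.9 CPM in young, 54.9 and 66.5 in middle-aged and 68.7 and 56.5 in old sections. It was called lower in old sections without young 1, at -0.64 (1.43% of genes called), and higher without young 2, at 0.67 (1.92%).

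In the edgeR fit with age alone and all 6 sections, the meningeal border was the only one of the 12 layers and regions with calls among the 10 genes. It comprised 901 spots, 140 to 168 per section with 2301951 to 3564461 UMIs in sum, named from marker genes and not from position. They were led by the meningeal genes Ptgds, Mgp and Igf2 but held cortical neuron genes such as Nrgn, Camk2a and Slc17a7 as well. For old against young Junb and Arc were called lower, where 0.213% of 12695 genes were called, and for middle-aged against young the same 2, where 0.339% were. Both comparisons share the young sections. The median log2 fold change of the 10 was -0.59 for old and -0.52 for middle-aged sections, beside 0.0 and 0.0 over all genes tested. For 7 of the 10 (Fos, Junb, Egr1, Egr3, Arc, Nr4a1 and Dusp1) both young sections lay above the other 4, as they did for 4.51% of all genes.

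Junb, the AP-1 subunit, lies at chr8:84974484-84978718 (minus strand) and Arc at chr15:74669083-74672570 (minus strand) in the GENCODE M21 annotation of GRCm38. Junb measured 149 and 107 CPM in young, 86.5 and 80.2 in middle-aged and 82.0 and 83.8 in old sections. The 4 older sections lay close together and under both young ones, and young 1 stood highest. The log2 fold change was -0.68 ± 0.133 for old against young (edgeR adjusted p = 0.0043) and -0.66 ± 0.129 for middle-aged against young (adjusted p = 0.00407). Arc measured 180.4 and 252 CPM in young, 159 and 151 in middle-aged and 128 and 137 in old sections. Again no older section reached a young one, but here young 2 stood highest. Its log2 fold change was -0.75 ± 0.124 for old (edgeR adjusted p = 0.000393) and -0.51 ± 0.12 for middle-aged sections (adjusted p = 0.0429).

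**Figure D4:**
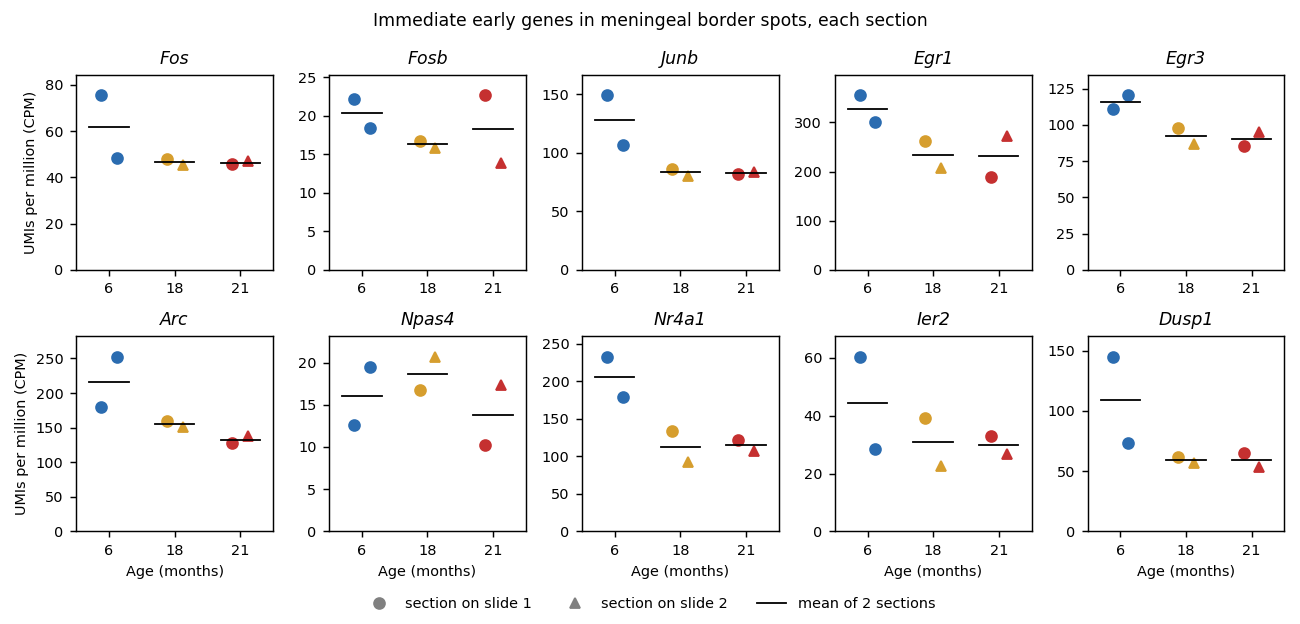
Level of each of the 10 genes in the meningeal border spots of each section, in CPM, with points coloured by age. Both young sections lie above the 4 others for Fos, Junb, Egr1, Egr3, Arc, Nr4a1 and Dusp1, and young 1 stands apart for Dusp1 at 145 against 53.4 to 73.6.

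Nr4a1, the nuclear receptor, measured 232 and 179 CPM in young, 134 and 91.9 in middle-aged and 122 and 107 in old border spots. Both young sections lay above all older ones, while the old pair lay within the middle-aged range. The log2 fold change of -0.90 ± 0.175 for old against young did not pass (edgeR adjusted p = 0.0948). Dusp1 measured 145 and 73.6 CPM in young, 61.4 and 56.9 in middle-aged and 65.0 and 53.4 in old sections. Only young 1 was far from the others, and the log2 fold change of -0.94 ± 0.431 did not pass (adjusted p = 0.953). Fos, at 75.5 and 48.4, 47.8 and 45.5, and 45.7 and 46.9 CPM, was likewise high in young 1 alone. Egr1 measured 355 and 300.0, 262 and 207, and 188.5 and 273 CPM, with a log2 fold change of -0.56 ± 0.157 (adjusted p = 0.461).

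The border calls rested on few sections. Without old 1 none of the 10 genes was called for old against young, and without old 2 only Egr1 was. Without young 1 the calls were Arc and Nr4a1 (0.347% of genes called), and without young 2 they were Ier2, Junb, Fos, Arc, Nr4a1 and Dusp1 (0.656%). Junb's log2 fold change then ran from -0.90 without young 2 to -0.41 without young 1. Finer clusters (resolution 1.2, which gave a smaller border region) moved it to -1.18 for old and -1.11 for middle-aged sections, and that of Nr4a1 to -1.50 and -1.70. DESeq2 called Arc and Nr4a1 (0.0668% of genes called) but not Junb (adjusted p = 0.413). Adding slide to the edgeR model likewise left Arc and Nr4a1 called and Junb not (adjusted p = 0.134). For middle-aged against young, the Junb call was lost without young 1, middle 1 or middle 2, and the Arc call without any one section other than young 1, at values of -0.54 to -0.26. Under DESeq2, or with slide in the model, neither was called for that age.

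Of other summed levels in the border spots, some separated young from older sections and some did not. Their part in the border result was not tested. The summed level of 13 meningeal marker genes was 13560 and 6811 CPM in young, 7830 and 10010 in middle-aged and 11830 and 10330 in old sections, so the young pair held both the highest and the lowest value. The 5 isocortex markers together ranged from 1142 to 1315 CPM, and 12 endothelial markers from 789 to 902 CPM, both with young and older sections overlapping. The 11 heat shock genes together had 3916 and 3459 CPM in young and 2791 to 3190 in older sections, and the 13 mitochondrially encoded genes 217000 and 211500 CPM in young and 185700 to 203500 in older sections. None of the genes on these lists was at 0.

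**Figure D5:**
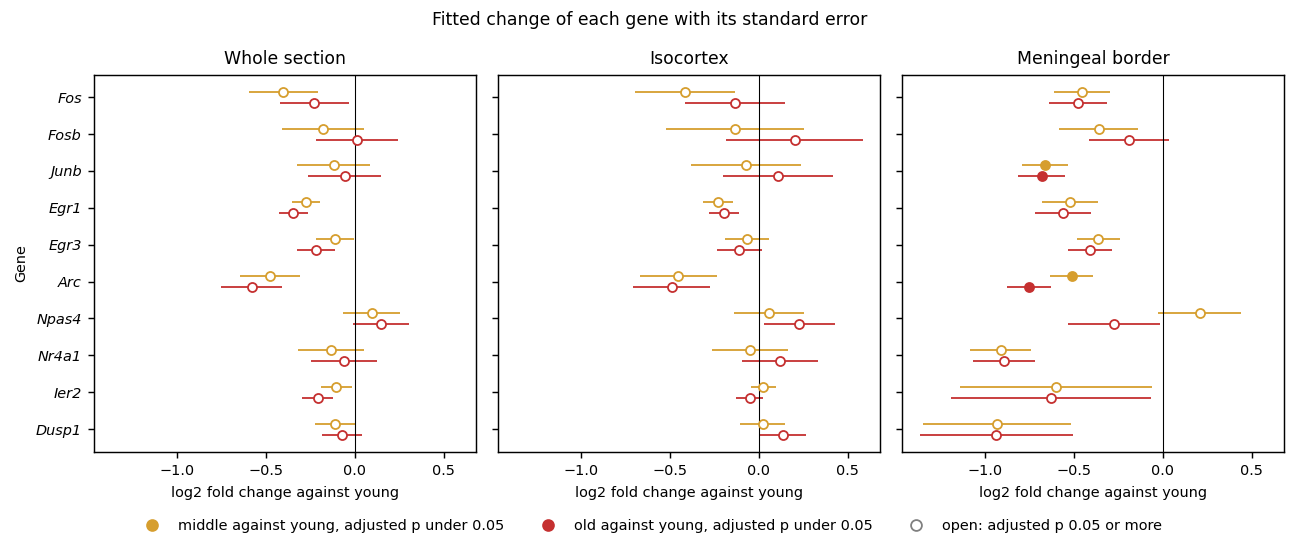
The log2 fold change of each of the 10 genes against young sections, with bars of 1 SE, in whole sections, isocortex and the meningeal border, from edgeR, filled where the adjusted p is under 0.05. The filled points are Junb and Arc in the meningeal border, at -0.68 and -0.75 for old and -0.66 and -0.51 for middle-aged sections.

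A wider list of 56 activity-regulated genes was examined in the same way. In the meningeal border 51 could be tested, and for old against young 0 were called higher and 7 lower: Maff, Nr4a2, Errfi1, Csrnp1, Apold1, Nr4a3 and Fosl2. For middle-aged against young 8 were called lower, Klf6 and Trib1 in place of Csrnp1, and the median of the tested genes was -0.27 in both comparisons. The calls of the wider list come from the main edgeR fit, and their dependence on single sections was not examined. Nr4a2, a nuclear receptor of the same family as Nr4a1, measured 92.9 and 63.7 CPM in young, 27.5 and 23.1 in middle-aged and 24.6 and 26.5 in old sections. Every older section was far below both young ones, at a log2 fold change of -1.68 ± 0.173 (edgeR adjusted p = 2.09e-08). Errfi1, an inhibitor of EGF receptor signalling, measured 73.5 and 63.1, 24.1 and 22.4, and 23.4 and 25.6 CPM, at -1.53 (adjusted p = 2.39e-09). The third receptor of the family, Nr4a3, measured 58.9 and 51.3, 25.1 and 26.9, and 34.8 and 27.8 CPM.

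Elsewhere the wider list gave few calls. In whole sections 0 of the 56 were called in any comparison by edgeR, and the smallest adjusted p for old against young was that of Errfi1, at 0.0986 with a log2 fold change of -0.43. In isocortex 0 of 55 were called for old against young, and for middle-aged against young only Apold1, an endothelial early response gene, at -0.98. In the other layers and regions the calls were Dusp14, a phosphatase gene, higher in old striatum at 0.59, and Errfi1 or Apold1 lower in white matter, choroid plexus, hypothalamus or layer 2/3. Among 21 upstream kinases and transcription factors, Mapk3, which encodes the kinase ERK1, was called higher in old isocortex, at 0.38.

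Genes of 2 other inducible programmes, the heat shock and the glucocorticoid response, differed between young and older sections where the 10 genes gave no call. In whole sections 5 of 11 heat shock genes were called lower for old against young (Hspa1a, Hspa1b, Dnajb1, Hsph1 and Hspb1), and 2 of 13 glucocorticoid-responsive genes (Sgk1 and Nfkbia). In isocortex the counts were 3 of 11 and 3 of 13. Errfi1 and Per1 stood on both the glucocorticoid list and the wider activity list. Hspa1a, an inducible HSP70 chaperone gene, measured 36.4 and 41.1 CPM in young, 18.4 and 19.2 in middle-aged and 21.3 and 17.8 in old isocortex. All 4 older sections lay far below the young pair, at a log2 fold change of -1.01 ± 0.0895 for old against young (edgeR adjusted p = 0.000178). The part of these programmes in the levels of the 10 genes was not tested.

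The likeness of the genes to each other differed between regions and between sections. Over the 12 layers and regions, the Pearson correlation of a gene's log2 level with the mean of the other 9 was highest for Egr1 (0.989), Nr4a1 (0.971) and Arc (0.943) and lowest for Dusp1 (0.716) and Ier2 (0.678). Over the 6 isocortex sums it was highest for Fosb (0.925) and much lower for Arc (0.457) and Ier2 (0.353). Among single isocortex spots of a section and cluster, thinned to equal depth, the highest were Egr1 with Arc and Egr1 with Nr4a1, both at a mean of 0.40 over 6 sections (0.32 to 0.49 and 0.32 to 0.50), then Fos with Egr1 at 0.33. These points share libraries, and the spots of a pair share their depth and neighbourhood, so the values describe these sections only. Among 9579 other genes, those most like the mean of the 10 over the 12 layers and regions were Homer1 (0.970), Cabp1 (0.961), Fmnl1 (0.952), Ier5 (0.950) and R3hdm1 (0.945). Over the 6 isocortex sums they were Hebp1 (0.996), Lix1l (0.994), Sppl3 (0.991), Zbtb21 (0.990) and Klhl23 (0.989), whose log2 levels spanned only 0.06 to 0.37 over the sections. Homer1, a postsynaptic scaffold gene with an activity-induced short form, and Ier5 are themselves stimulus-regulated.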

How the data were processed

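The deposited files are whole-number UMI counts per gene and spot for the spots under tissue, made by the authors with Space Ranger per the file headers, and aligned to mm10 per the submitters' processing notes. Spots under 500 UMIs were removed (1 each in middle 2 and old 2). Counts were summed per section, region and layer. Genes were tested with edgeR 4.0.16 in R 4.3.3 (TMM, filterByExpr, robust quasi-likelihood fit, all 3 ages in one model, two-sided, Benjamini-Hochberg adjustment over all genes tested), which was tested on simulated data. Spots were clustered with scanpy 1.11.5 and leidenalg 0.10.2 (2000 variable genes scaled within a section, 30 components, 20 neighbours, resolution 0.8). A cluster was named when at least 3 markers of a region were among its 50 leading genes, with at least 1 among the first 10. They also had to number at least 2 times those of any other region. These details were settled after the clusters were seen, and 1066 spots in 2 of 21 clusters stayed unnamed. The labels give 2 mice per age as separate samples. Groups came from the labels, and depth was 60938938 to 77557934 UMIs per section.

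The rule for naming took all 10 genes, up to 8 called genes of each further list or, where under 4 were called, up to 4 with the smallest p, and the 5 most like genes per pattern. Of the list genes the text prints only part. The members and lists were chosen with earlier results of these data known. Each section was left out in turn, and the fits were repeated with DESeq2 1.42.0, with a block for slide or for replicate number, and with clusters at resolutions of 0.5 and 1.2. Further repeats used scaling by RLE, a looser filter and a stricter one (10 counts per section), the newer dispersion estimate of edgeR, thinned sums, pairs of ages alone, equal spots per region or cortical cluster, and sums lacking mitochondrial genes. Sequences came from RefSeq's promoter table, in which 6 of the 10 genes matched (not Egr1, Egr3, Arc and Ier2). Images were not used here.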

Additional observations from a re-analysis of the deposited data

How the results depend on the processing

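Over 374 alternatives of 31 counts of called genes among the 10, 327 left the count equal or, where both were above 0, close to it. This score compares numbers and not genes: in the meninges for old, DESeq2 kept the number but not Junb. Outside the meninges every main count was 0. Of 820 alternatives of single log2 fold changes 728 kept direction and call while 47 turned direction. Egr1 and Arc kept their direction in whole sections and isocortex under every alternative run. With 1 section left out, the number called ran from 0 to 1 in whole sections and in layers 2/3, 4, 5 and 6 for both comparisons with young. It ran from 0 to 3 (old) and 0 to 2 (middle-aged) in hippocampal formation, 0 to 4 and 0 to 5 in striatum, 0 to 1 and 0 to 2 in amygdala and in white matter, 0 to 1 in choroid plexus for old, and 0 to 6 and 0 to 5 in the meninges. DESeq2 called 1 in whole sections (Egr1, old) and 1 in the meninges (Nr4a1, middle-aged), where slide as a block also left 1. Leiden resolution 1.2 gave 4 and 4 in the meninges, and resolution 0.5 gave no such region. Neither resolution gave a cluster named layer 4, so the layer 4 results rest on the main clustering. With the replicate block the count was 1 in layer 2/3 for middle-aged (Arc) and 4 for each age in the meninges. Same-numbered sections did not deviate together for young and middle-aged (r = -0.075) or young and old (r = -0.067), so the numbers do not pair the mice, while for middle-aged and old (r = 0.327) the number is also the slide.

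With slide as a block, these log2 fold changes turned from below to above 0: in whole sections, old against young, Junb 0.082, Nr4a1 0.102 and Dusp1 0.038, and middle-aged, Junb 0.032, Nr4a1 0.045 and Dusp1 0.004; in isocortex, middle-aged, Fosb 0.035, Junb 0.122, Egr3 0.015 and Nr4a1 0.12. Equal spots per region gave Nr4a1 0.004 for whole sections, old. With 1 section left out the whole-section values for old ran from -0.54 to 0.024 (Fos), -0.27 to 0.30 (Fosb), -0.28 to 0.18 (Junb), -0.015 to 0.33 (Npas4), -0.34 to 0.17 (Nr4a1) and -0.27 to 0.10 (Dusp1), and for middle-aged from -0.42 to 0.11 (Fosb), -0.32 to 0.12 (Junb) and -0.10 to 0.28 (Npas4). In isocortex they ran for old from -0.50 to 0.15 (Fos), -0.20 to 0.63 (Fosb), -0.22 to 0.38 (Junb), -0.26 to 0.058 (Egr3), -0.18 to 0.37 (Nr4a1), -0.14 to 0.027 (Ier2) and -0.081 to 0.32 (Dusp1), and for middle-aged from -0.46 to 0.29 (Fosb), -0.30 to 0.20 (Junb), -0.22 to 0.10 (Egr3), -0.16 to 0.25 (Npas4), -0.15 to 0.061 (Nr4a1), -0.041 to 0.093 (Ier2) and -0.05 to 0.10 (Dusp1). The cause was not tested. With 2 mice per age, 3 residual degrees of freedom limit what these fits can call.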
